A study of Mus musculus with 16 samples.

Results

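The change in gene expression that DN3 and ISP8 thymocytes shared when PKBα was missing was measured on all 16 arrays of the series. Each of 8 mice gave 1 DN3 and 1 ISP8 array, the log2 values of these 2 arrays were averaged per animal, and 4 PKBα-/- animals were compared with their 4 PKBα+/+ littermates. DN3 cells are early CD4-negative, CD8-negative thymocytes that rearrange the TCRβ locus. ISP8 cells carry CD8 without CD4 and lie later on the path, after the pre-TCR checkpoint and a DN4 stage and just before cells carry both. All mice were of a C57Bl/6 backcross. Pair 1 was female and 5 weeks old, pair 2 male and 2 weeks old, pair 3 male and 3 weeks old, and pair 4 female and 3 weeks old. The deletion was constitutive, so cells around the sorted thymocytes lacked PKBα too. Between 7000 and 25000 cells were sorted per sample, in equal number within a pair.

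PKBα, encoded by Akt1, is a serine/threonine kinase that is recruited to the membrane and activated when PI3K makes phosphoinositides there. In early thymocytes PI3K acts downstream of the pre-TCR, Notch and cytokine receptors, and PKB is linked to survival, metabolism, growth and the exclusion of FOXO transcription factors from the nucleus. PKBβ and PKBγ are products of other genes.

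The sorted subsets carried their defining transcripts. In wild-type animals the mean GC-RMA value of Il2ra, which encodes CD25, was 8130 in DN3 and 185 in ISP8 cells, and that of Cd8a was 208 and 5150. GC-RMA values are background-corrected, normalized probe set intensities on a linear scale. Array medians lay between 55.1 and 70.5, and 69.5% to 72.8% of probe sets were above 20. Spearman's correlation across probe sets between the 2 arrays of an animal was 0.88 to 0.903. The gap between 3′ and 5′ control probe sets, a sign of RNA length, differed between genotypes by a mean log2 value of 0.03 for actin (exact sign-flip test over 4 pairs, two-sided p = 0.5) and 0.01 for Gapdh (exact p = 1), where the smallest p this design allows is 0.125.

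Akt1 was the gene that separated the genotypes most. Wild-type animals of pairs 1 to 4 had levels of 1540, 1900, 2040 and 1470 at the brightest Akt1 probe set, and their PKBα-/- littermates had 13.2, 3.13, 4.79 and 5.1. Every PKBα-/- animal lay far below every wild-type animal, in both subsets. The log2 change, PKBα-/- minus PKBα+/+, was -8.25 ± 0.31 (SE, n = 4 pairs; limma adjusted p = 1.88e-09), with -8.08 in DN3 and -8.42 in ISP8 cells. The other Akt1 probe sets that were tested fell as well, by 5.57 and 1.89 on the log2 scale. Akt2, which encodes PKBβ, had changes of -0.24, 0.09 and -0.04 at its 3 tested probe sets, none of which passed. The 95% interval of the brightest of these was -0.13 to 0.31.

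Of 31682 probe sets tested, 13 (0.041%) were called in the averaged comparison, that is, had a Benjamini-Hochberg adjusted p under 0.05 in limma with the littermate pair as a block. Of these, 2 were higher (0.00631% of those tested) and 11 lower (0.0347%) in PKBα-/- animals. They named 8 genes, Akt1, Ctla4, Rrm2, Rsad2, Iigp1, Ccr9, Cdkn1a and S100a8, and 3 probe sets that match several globin genes. At an unadjusted p under 0.05 there were 1551 probe sets (4.9%), 843 higher (2.66%) and 708 lower (2.23%). Fitted alone, DN3 cells gave 12 calls (0.0379%) and ISP8 cells 3 (0.00947%), and 7 of the 13 were called in neither subset alone. Averaging brought the median SE down to 0.171 from 0.212 in DN3 and 0.236 in ISP8 cells. Without the pair as a block 2 probe sets remained, both of Akt1, and with a spread that did not follow the mean level there were 0 calls in limma, Akt1 included (1594 at unadjusted p under 0.05). When each pair was left out in turn, Akt1 at 2 probe sets, S100a8 and the β-globin probe set stayed below the threshold every time.

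How far the subsets shared a change was read from the 8 differences that 4 pairs in 2 subsets give. All 8 had the same sign at 358 probe sets (1.13%), 173 higher (0.546%) and 185 lower (0.584%), and at 8 of the 13 called. An unadjusted p under 0.05 in each subset with the same sign was found at 131 probe sets (0.413%) and with opposite signs at 56 (0.177%). The subsets came from the same animals, so they are not independent replicates. No probe set was called for a difference of the genotype effect between subsets (0%, smallest limma adjusted p = 0.462), and 1743 (5.5%) had an unadjusted p under 0.05, Rsad2 alone among the 13 called. The SE of that difference had a median of 0.273, so only large differences between subsets could have been seen.

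**Figure D1:**
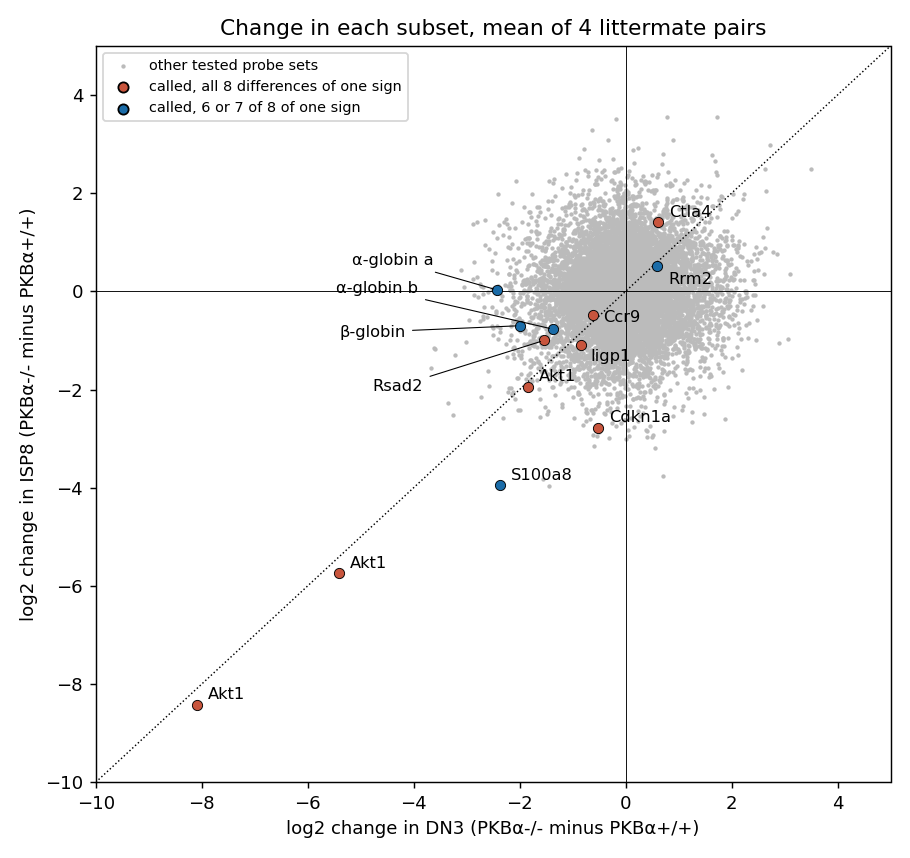
Log2 change (PKBα-/- minus PKBα+/+, mean of 4 littermate pairs) in DN3 cells on the x axis and in ISP8 cells on the y axis, 1 point per tested probe set, with the 13 called in the averaged comparison named. The Akt1 points lie close to the dotted line of equal change at up to -8.08 and -8.42, whereas 1 α-globin probe set lies at -2.43 in DN3 and 0.03 in ISP8 cells.

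Ctla4, which encodes an inhibitory receptor of T cells that competes with CD28 for its ligands, was higher without PKBα. Its level was 551, 591, 747 and 772 in the wild-type animals of pairs 1 to 4 and 1400, 1310, 986 and 1720 in their PKBα-/- littermates. The groups did not overlap, as was the case at 1.83% of probe sets tested, and pair 3 had the smallest rise. The mean change was 2.02-fold, or 1.01 ± 0.13 on the log2 scale (SE, n = 4 pairs; limma adjusted p = 0.00619). All 8 differences were above 0, with means of 0.62 in DN3 and 1.41 in ISP8 cells (unadjusted p of the difference 0.071). Its adjusted p rose to 0.0523 without pair 1 and 0.0662 without pair 4.

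Rrm2, the small subunit of ribonucleotide reductase that supplies deoxynucleotides in S phase, was called at 1 of 3 tested probe sets. There the wild-type animals had 1620, 3200, 2240 and 2810 and the PKBα-/- littermates 2680, 3570, 3340 and 4750. The groups overlapped, but each PKBα-/- animal was above its own littermate. The log2 change was 0.56 ± 0.09 (limma adjusted p = 0.0457), with 7 of 8 differences above 0. The other 2 probe sets, brighter than this one, gave 0.14 and 0.12 and did not pass, so the size of the Rrm2 change depends on the probe set. The call was lost without pair 1, pair 3 or pair 4 (adjusted p 0.174 to 0.262).

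Ccr9, a chemokine receptor that rises as thymocytes pass β-selection and responds to the thymic ligand CCL25, was lower. The brightest probe set gave 6680, 3080, 4540 and 3330 in wild-type and 4640, 2180, 3710 and 1800 in PKBα-/- animals. Pairs differed more than genotypes did, so the groups overlapped, yet every pair and both of its subsets fell. The log2 change was -0.55 ± 0.084 (limma adjusted p = 0.0266), with -0.62 in DN3 and -0.48 in ISP8 cells. The other 4 tested probe sets of Ccr9 had changes of -0.67, -0.59, -0.39 and -0.29. The call was lost without pair 1, 2 or 4 (adjusted p 0.153, 0.0874 and 0.0933), with the change between -0.44 and -0.57.

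Cdkn1a encodes p21, an inhibitor of cyclin-dependent kinases. Wild-type animals had 514, 809, 722 and 347 and PKBα-/- animals 85, 369, 165 and 206. The log2 change was -1.65 ± 0.23 (limma adjusted p = 0.0127), and all 8 differences were below 0. The 2 subsets differed widely in level, however. In DN3 cells the wild-type values were 1990, 2430, 2300 and 1380 against 1860, 1560, 1570 and 786, a mean log2 change of -0.52. In ISP8 cells they were 133, 269, 227 and 87.3 against 3.87, 87.3, 17.5 and 53.9, a mean log2 change of -2.78 that comes from low values (unadjusted p of the difference between subsets 0.085). A mean of linear values per animal gave -0.59 (adjusted p = 0.0776). A second Cdkn1a probe set had a change of -0.71 and did not pass.

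**Figure D2:**
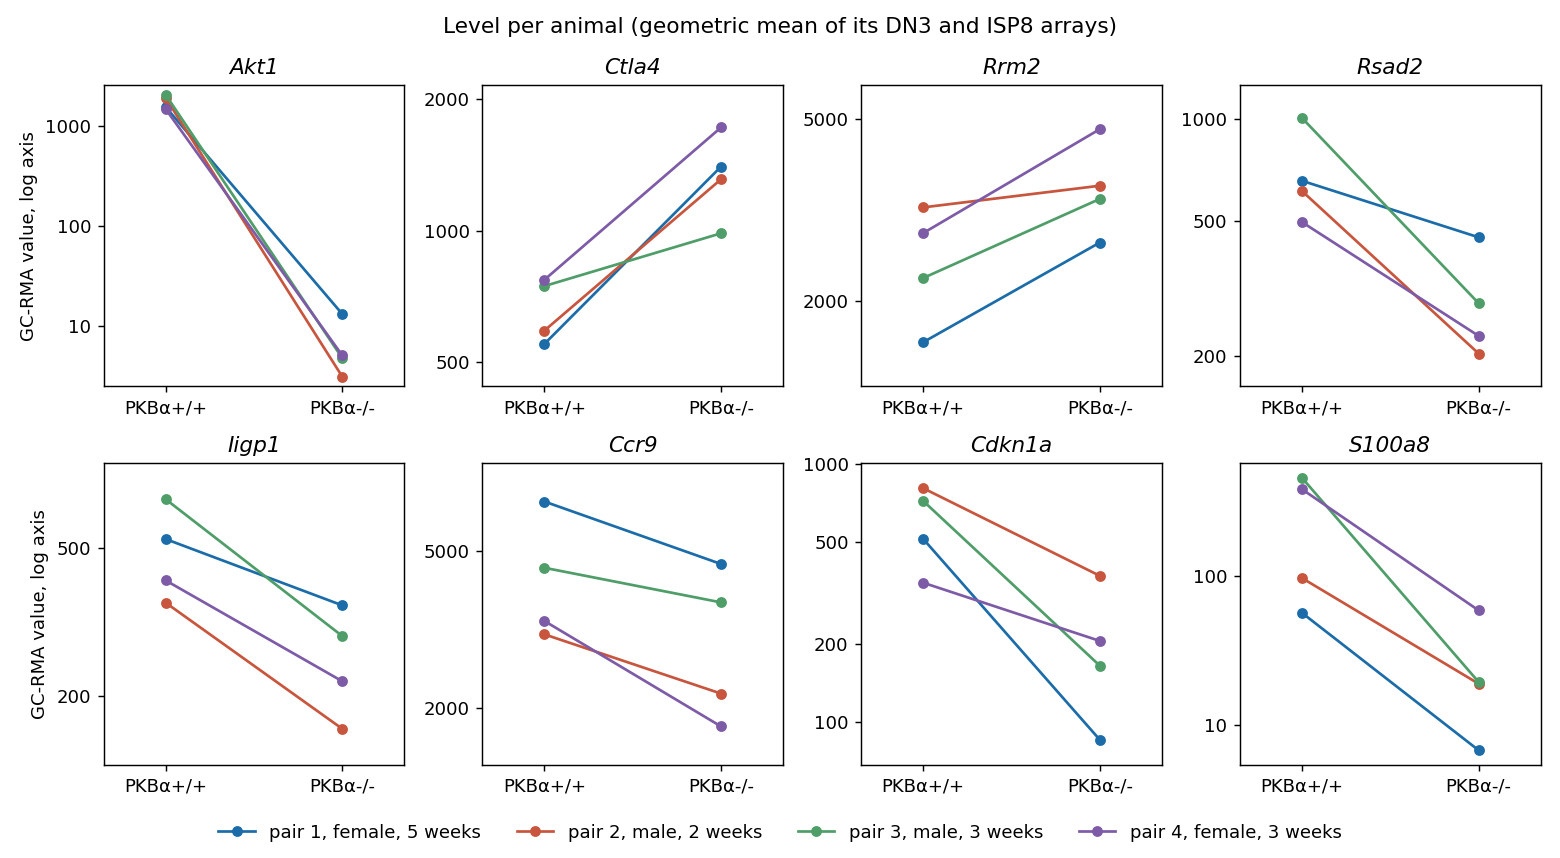
Level of the 8 called genes in each animal (GC-RMA value, log axis, geometric mean of its DN3 and ISP8 arrays), with littermates joined by a line and 1 colour per pair. Akt1, Ctla4, Rsad2 and Iigp1 do not overlap between genotypes, and Rrm2, Ccr9, Cdkn1a and S100a8 overlap although each pair moved in one direction.

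Rsad2 encodes viperin, an antiviral enzyme, and was lower without PKBα in both subsets. Its brightest probe set had 659, 615, 1010 and 498 in wild-type and 449, 204, 287 and 230 in PKBα-/- animals. All PKBα-/- animals lay below all wild-type animals, and pair 1 had the smallest gap. The change was 2.41-fold, or -1.27 ± 0.17 on the log2 scale (SE, n = 4 pairs; limma adjusted p = 0.00884), with -1.54 in DN3 and -1.0 in ISP8 cells (unadjusted p of the difference 0.043, adjusted p = 0.865). Without pair 3 its adjusted p was 0.0844. Of 2 dimmer probe sets, 1 gave -1.40 and the other, at levels from 18.5 to 49.6, gave -0.15.

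Iigp1, an interferon-inducible GTPase that acts on vacuoles of intracellular pathogens, was lower as well. Levels were 530, 357, 679 and 410 in wild-type and 351, 163, 290 and 219 in PKBα-/- animals, without overlap. Its log2 change was -0.97 ± 0.14 (limma adjusted p = 0.0142), with -0.84 in DN3 and -1.09 in ISP8 cells and all 8 differences below 0. The adjusted p was 0.0783, 0.118 and 0.0662 without pair 2, 3 or 4. A second, dimmer Iigp1 probe set gave -1.10 and did not pass. Its groups overlapped, 7 of 8 differences were below 0, and pair 4 was at 0.37. Ifit1, whose product binds viral RNA lacking a host cap, stood just outside the threshold. Its levels of 314, 326, 536 and 260 in wild-type and 223, 124, 166 and 147 in PKBα-/- animals did not overlap, and the change of -1.10 ± 0.18 had an adjusted p of 0.0513.

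Interferon-stimulated genes are switched on through response elements near the start of transcription, whose core was searched here as GAAA, any 2 bases, and GAAA again, 10 bases in all, on both strands (so also TTTC, any 2 bases, TTTC). Windows of 300 bases, 250 before and 50 after each gene's start, came from RefSeq on GRCm38.p6, and 40 of the 52 type I interferon-inducible genes tested had one. The core was present in 17 of the 40 (42.5%), against 1079 of 27025 genes with a window (3.99%) and 403 of 10983 genes on the array that were tested (3.67%). Among the members lower at an unadjusted p under 0.05 it was present in 10 of 21 (47.6%), and among the others in 7 of 19 (36.8%). Windows of 3 members that moved in one direction in all 8 differences are shown, 5′ to 3′ on the gene's strand, with matches in capitals. They lie at chr12:26456403-26456702 on the minus strand (Rsad2), chr19:34640639-34640938 on the plus strand (Ifit1) and chr5:120907476-120907775 on the minus strand (Oas1a, which makes 2′-5′ oligoadenylates). Rsad2 holds 1 match, Ifit1 holds 2 and Oas1a holds 2 that overlap.
Rsad2: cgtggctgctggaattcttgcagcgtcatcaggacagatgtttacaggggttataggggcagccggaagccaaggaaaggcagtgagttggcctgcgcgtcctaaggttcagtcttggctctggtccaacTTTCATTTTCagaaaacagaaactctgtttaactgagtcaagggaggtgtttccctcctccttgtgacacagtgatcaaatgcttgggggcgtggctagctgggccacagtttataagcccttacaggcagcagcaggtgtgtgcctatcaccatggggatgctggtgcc
Ifit1: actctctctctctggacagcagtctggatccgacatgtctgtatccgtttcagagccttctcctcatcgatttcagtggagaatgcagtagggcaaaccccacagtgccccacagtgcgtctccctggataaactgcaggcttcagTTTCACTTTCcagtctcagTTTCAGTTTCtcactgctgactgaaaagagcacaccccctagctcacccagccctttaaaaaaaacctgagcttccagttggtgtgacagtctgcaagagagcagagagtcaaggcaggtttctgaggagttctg
Oas1a: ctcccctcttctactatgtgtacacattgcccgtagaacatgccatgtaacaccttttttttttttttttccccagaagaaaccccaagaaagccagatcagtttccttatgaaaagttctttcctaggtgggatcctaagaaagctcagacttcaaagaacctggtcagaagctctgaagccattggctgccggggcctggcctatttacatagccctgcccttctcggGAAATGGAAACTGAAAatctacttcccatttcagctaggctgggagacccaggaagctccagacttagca
A match describes the letters of the window and does not show binding.

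Type I interferon-inducible genes were lower as a group. Of 52 tested, each at its brightest probe set, 45 were below 0 and 25 were lower at an unadjusted p under 0.05, against 2.42% of 13616 genes tested the same way. No member was higher at that threshold, against 2.48% of all genes. In all 8 differences 11 members were lower and none was higher, against 0.683% and 0.529% of genes, and 1, Rsad2, was called (0.0514% of genes called in either direction). The median change was -0.25 beside 0.00 over all genes, with -0.27 in DN3 and -0.14 in ISP8 cells. Members ranged from -1.27 to 0.29. Without the filter on level, 47 of 55 measured members were below 0.

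Among the members that did not pass were several with known roles in the antiviral state. Rtp4, a Golgi chaperone induced by interferon, had levels of 1190, 1700, 1990 and 1750 in wild-type and 1110, 876, 1060 and 1170 in PKBα-/- animals, a change of -0.64 (adjusted p = 0.102). The groups did not overlap, and pair 1 again had the smallest gap. Trim30a, a ubiquitin ligase that restrains inflammatory signaling, was at -0.36 (adjusted p = 0.219) and Samd9l, a growth and antiviral regulator, at -0.40 (adjusted p = 0.3), both below 0 in all 8 differences. Usp18, which removes ISG15 and dampens the interferon receptor, had -0.73. Cmpk2, a nucleotide kinase beside Rsad2 on the chromosome, had -1.06, and Ifit3, a partner of Ifit1, had -0.95. The antiviral GTPase Mx1 was at -0.94, the RNA sensor Ifih1 at -0.37 and the transcription factors Irf7 and Irf9 at -0.43 and -0.27. Irf7 and Ifit3 were below 0 in DN3 cells of every pair but divided in ISP8 cells. There pairs 1 to 4 gave -0.21, -0.40, 0.11 and 0.60 for Irf7 and 0.42, 0.99, -0.94 and -1.02 for Ifit3.

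**Figure D3:**
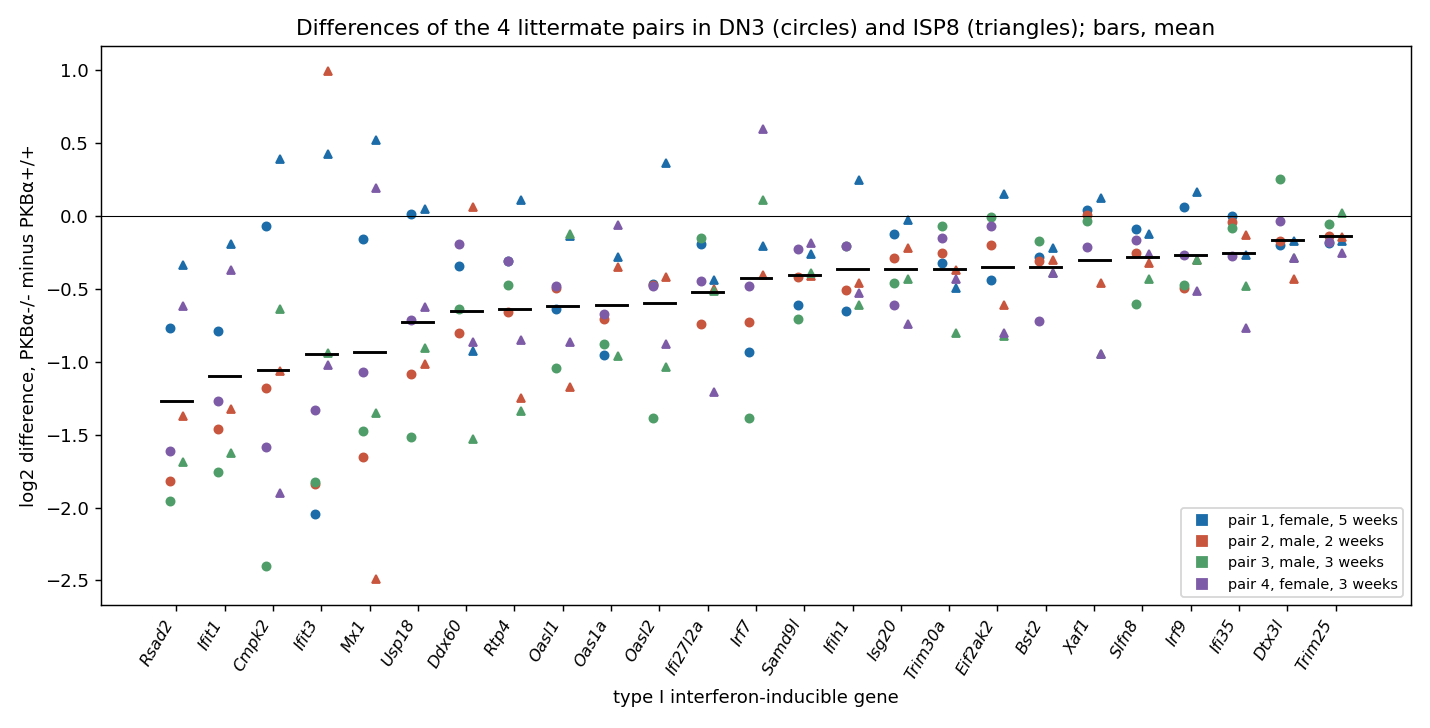
Log2 difference between littermates (PKBα-/- minus PKBα+/+) of the 25 type I interferon-inducible genes with an unadjusted p under 0.05, with circles for DN3, triangles for ISP8, 1 colour per pair and a bar at the mean. Bars run from -1.27 for Rsad2 to -0.14 for Trim25, and of the points above 0, 16 are ISP8 and 5 are DN3 points.

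The shift differed between litters. The median over the 52 genes was -0.06 in pair 1, -0.30 in pair 2, -0.40 in pair 3 and -0.29 in pair 4, with 31, 42, 47 and 38 members below 0. Over all probe sets tested, the pair medians lay between -0.01 and 0.02. In DN3 cells the 4 pair medians were -0.13, -0.31, -0.45 and -0.22, and in ISP8 cells -0.09, -0.19, -0.39 and -0.26. The smallest shift was thus in the oldest pair in each subset. Age, sex and litter cannot be told apart among 4 pairs. The genes that the study's own tables list as interferon-inducible were chosen on these arrays. Without them 38 of 45 members were below 0, 18 were lower at an unadjusted p under 0.05, 8 were lower in all 8 differences, and the median was -0.15. Genes that those tables place in other groups were not taken out, so this set may still hold genes chosen on these arrays.

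Genes known for induction by interferon-γ and for antigen presentation had a median closer to 0. Of 27 tested, 18 were below 0, 5 were lower and 1 higher at an unadjusted p under 0.05, and the median was -0.06. Over all 13616 genes, 49% were below 0, 2.42% lower and 2.48% higher at that threshold, and 0.0514% were called in either direction. Iigp1 was the called member. H2-K1, a class I heavy chain with close relatives that share probes, had -0.26, Gbp6, a guanylate-binding GTPase, -0.19, Nlrc5, a transactivator of class I genes, -0.51, and Irgm1, a GTPase that regulates its relatives, -0.27. None of these 4 passed. H2-Aa, a class II chain, was at 0.48 and did not pass either, with 1.19 in DN3 and -0.23 in ISP8 cells (unadjusted p of the difference 0.05, adjusted p = 0.865). Its other tested probe sets gave 0.15 and 0.12, also above 0 in DN3 and below 0 in ISP8 cells. Interferon receptors and JAK-STAT components, 15 in all, had a median of 0.02, with 2 lower and 1 higher at an unadjusted p under 0.05.

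S100a8 had the widest fold difference among the called genes after Akt1. It encodes a calcium-binding protein abundant in neutrophils and had levels of 56.4, 96.4, 452 and 379 in wild-type and 6.78, 18.9, 19.4 and 58.5 in PKBα-/- animals. The groups overlapped narrowly, and every pair fell. The log2 change was -3.16 ± 0.35 (limma adjusted p = 0.00189). In pairs 1 to 3 the wild-type animal alone was above the filter of 20, so S100a8 was tested only because of its wild-type level. With no filter on level its limma adjusted p was 0.00518. Single arrays were far less even than these animal means. Wild-type values were 18.4, 470, 107 and 563 in DN3 and 173, 19.8, 1910 and 254 in ISP8 cells, against 21.7, 4.57, 27.5 and 265 and 2.11, 77.9, 13.6 and 13 in PKBα-/- cells. The 8 differences ran from -7.13 to 1.98, with 6 below 0. When all 16 arrays entered the fit with the animal as a random block, the adjusted p was 0.726, since the spread between the arrays of an animal then counted.

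Of 10 neutrophil markers measured, 8 passed the filter on level. S100a9 did so through wild-type animals alone, as did S100a8 in pairs 1 to 3 and Mpo in pairs 1, 2 and 4. The count and median of this list are therefore not given as a result. S100a9, the partner of S100a8, had -2.70, Mpo, myeloperoxidase of granules, -1.57, and Camp, a granule peptide, -2.23, and none of these passed. S100a9 had levels of 15.6, 30.9, 185 and 166 in wild-type and 8.92, 8.7, 5.85 and 18.4 in PKBα-/- animals. Mpo had 35.6, 29.5, 85.5 and 65.6 against 13.2, 13.4, 45.5 and 9.47. Camp had means of 49.5 and 9.9, the latter below the filter of 20. Of the 2 markers that were not tested, Lcn2 had means of 11 and 11.9 and Cxcr2 of 9.79 and 5.4. The sum over 10 neutrophil markers was 253, 371, 1080 and 1100 in wild-type and 192, 171, 212 and 298 in PKBα-/- animals, and 1 of the 10, Lcn2, was below 20 in all animals. The antibody mix that the methods give for early precursors held Gr-1 and CD11b, which mark neutrophils, among the lineage markers, whereas ISP8 cells were sorted by CD3, CD4 and CD8. In such sorted bulk samples, fewer cells of a type and less RNA per cell cannot be told apart. The gap between these sums was smallest in pair 1, as was the interferon shift. On the log2 scale S100a8 differed by -3.06, -2.35, -4.54 and -2.69 in pairs 1 to 4, with the smallest gap in pair 2. Whether neutrophil RNA had a part in the interferon-inducible genes was not tested. Summed markers of dendritic cells and macrophages ran from 4280 to 5920 in wild-type and from 3760 to 7000 in PKBα-/- animals and were lower in 2 of 4 pairs.

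Globin probe sets were lower in the animal means too. The probe set that matches only β-globin genes had 66.4, 661, 1070 and 2610 in wild-type and 23.6, 253, 462 and 1050 in PKBα-/- animals, a log2 change of -1.35 ± 0.12 (limma adjusted p = 1.94e-04). Pairs differed by much more than genotypes, and the drop within pairs was nearly constant only in the mean of both subsets. Pair 2 differed by -4.16 in DN3 and 1.39 in ISP8 cells, and the subset means were -2.0 and -0.7. The 2 probe sets that match only α-globin genes had changes of -1.20 and -1.07 (adjusted p = 0.002 and 0.0371). One of them went from -2.43 in DN3 to 0.03 in ISP8 cells, with differences from -3.79 to 2.21. The difference between these subset means did not pass (unadjusted p = 0.13, adjusted p = 0.865), and its SE was 1.3. With the animal as a random block over 16 arrays, the 3 globin probe sets, S100a8, Cdkn1a and the dimmest Akt1 probe set were not called. The sum over 8 erythroid markers, which holds 3 globin probe sets of single genes and is carried by Fech, the enzyme that inserts iron into heme (means 887 and 855), ran from 1250 to 1390 in wild-type and from 1150 to 1400 in PKBα-/- animals.

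**Figure D4:**
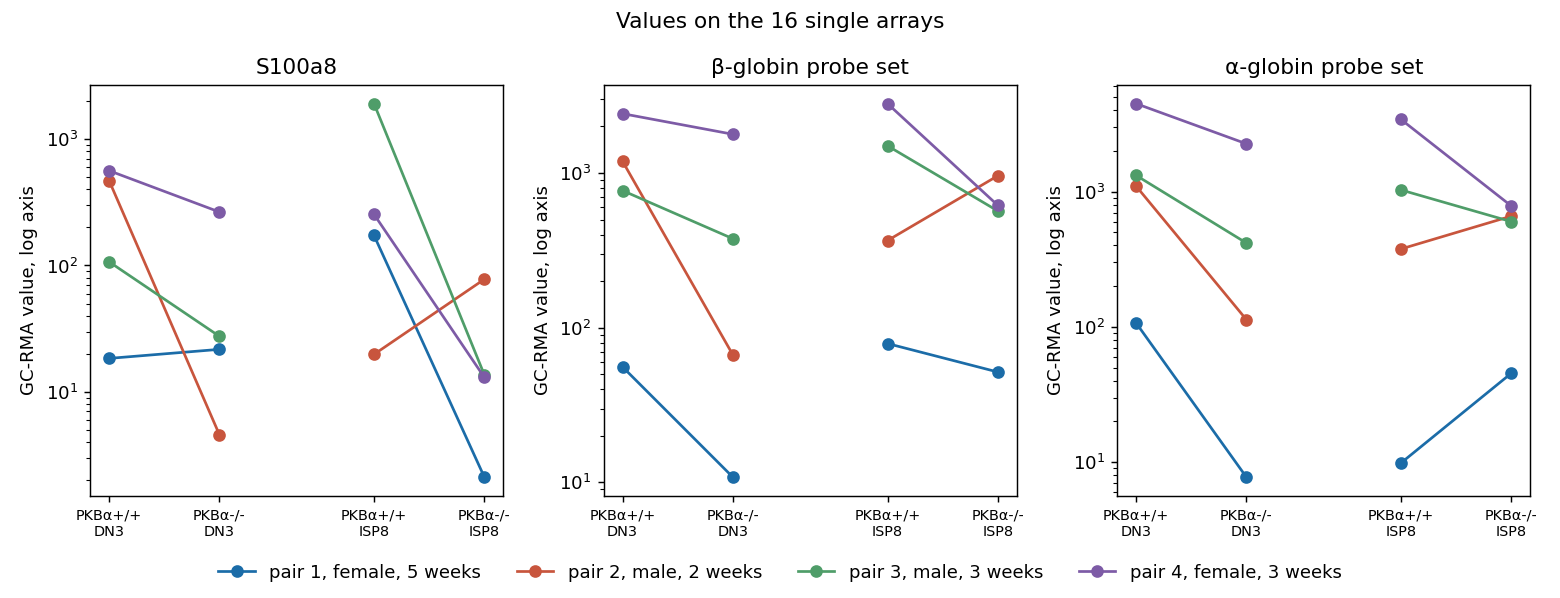
GC-RMA values (log axis) of S100a8, the β-globin probe set and an α-globin probe set on the 16 single arrays, with littermates joined by a line within each subset and 1 colour per pair. Lines cross and turn upward in some pairs, as for S100a8 in ISP8 cells of pair 2 (19.8 to 77.9), although the mean of the 2 arrays fell in every pair.

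The fit over 16 arrays with the animal as a random block called 12 probe sets, 7 of them among the 13. It kept Akt1 at 2 probe sets, Ctla4 (adjusted p = 0.0492), Rrm2 (0.0376), Rsad2 (0.011), Iigp1 (0.011) and Ccr9 (0.034). It added Ifit1 (0.039), Mpzl2 (0.0343), A630023P12Rik (0.034), Agfg1 (0.0376) and Cyth3 (0.042). In the averaged comparison these 5 had adjusted p from 0.0513 to 0.0691 and all 8 differences of one sign.

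Of these, Mpzl2, an immunoglobulin-fold adhesion molecule of thymus epithelium and thymocytes, had levels of 1220, 1760, 1310 and 1520 in wild-type and 2090, 2060, 2160 and 2160 in PKBα-/- animals. The groups did not overlap, and the PKBα-/- animals were nearly alike. Its log2 change was 0.56 ± 0.093 (adjusted p = 0.0513), and its 2 other tested probe sets gave 0.68 and 0.38. A630023P12Rik had 69.7, 222, 173 and 233 against 159, 354, 317 and 429, a change of 0.90 (adjusted p = 0.0513) that was 0.90 in DN3 and 0.91 in ISP8 cells. Cyth3, an ARF exchange factor that binds the lipid product of PI3K, had 551, 810, 551 and 663 against 886, 977, 940 and 1020, without overlap (0.59, adjusted p = 0.0691). Agfg1, an ARF GTPase-activating protein homologue, was at 0.42 (adjusted p = 0.0656).

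Other genes had all 8 differences of one sign and did not pass. Hsd17b11, a lipid droplet dehydrogenase, was at 0.41 (adjusted p = 0.058). Bambi-ps1, a pseudogene, was at 1.22, A930006K02Rik at 1.0, Ate1, an arginyltransferase, at 1.01 at a dim probe set, Mis18a, a centromere factor, at 0.28 and Eps8l1, an actin regulator, at 1.64, with adjusted p from 0.17 to 0.335. The Eps8l1 value rests largely on pair 3, whose wild-type animal was at 13.2 and the others at 86.2 to 106. Other probe sets of these genes often gave less. The 2 brightest of 5 tested for Ate1 gave 0.00 and -0.05, and second probe sets gave 0.07 for Mis18a, 0.64 for Eps8l1 and 0.45 for A930006K02Rik. On the lower side, Klf9, a Krüppel-like transcription factor, was at -1.26 and Naxd, which repairs hydrated NADH, at -0.25, with adjusted p of 0.145 and 0.212. The brightest Klf9 probe set gave -0.65 (adjusted p = 0.3) and 2 others -0.34 and 0.28, and the value of -1.26 includes ISP8 levels down to 3.23.

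In the PI3K pathway itself, Akt1 was the called gene. Of 30 PI3K, PKB and mTOR genes tested, 19 were above and 11 below 0, the median change was 0.05, and 2 were higher at an unadjusted p under 0.05, Pik3r5, a regulatory subunit of PI3Kγ (0.29), and Rptor, the mTORC1 scaffold (0.19). FOXO factors and targets, 24 tested, had a median of 0.05, with 2 higher and 2 lower at an unadjusted p under 0.05. For both lists the shares over all 13616 genes are 49% below 0, and 2.48% higher and 2.42% lower at that threshold. Il7r, which encodes the IL-7 receptor and is a FOXO1 target, was at -0.22, Bcl2l11, which encodes the death factor BIM, at -0.19, and Klf2, a regulator of thymic exit, at 0.87, and none passed. The Klf2 value rests largely on pair 2 (2.34), whose wild-type DN3 value was 4.87, and pairs 1, 3 and 4 gave 0.66, -0.05 and 0.53. Among the 31 tested genes near Akt1 on its chromosome, Akt1 included, none besides Akt1 was called, and the median was 0.01.

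Most cholesterol and fatty acid synthesis genes were slightly below 0. Of 19 tested, 18 were below 0 and 8 were lower at an unadjusted p under 0.05, with a median of -0.13, -0.12 in DN3 and -0.14 in ISP8 cells, and no member was called. Over all 13616 genes, 49% were below 0 and 2.42% lower at that threshold. Hmgcs1, which makes the precursor of mevalonate, had levels of 15900, 16200, 15800 and 16600 in wild-type and 12400, 15600, 15100 and 12600 in PKBα-/- animals. The groups did not overlap, and the change was -0.22 (adjusted p = 0.621), with 3 of its 5 tested probe sets between -0.07 and 0.00. Sqle, the squalene epoxidase, was at -0.18, and Scd2, a fatty acid desaturase, at -0.13. The count of 8 fell to between 2 and 5 when a pair was left out (4, 3, 5 and 2 without pairs 1 to 4), to 1 without the pair block and to 0 with a spread that did not follow the mean level.

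**Figure D5:**
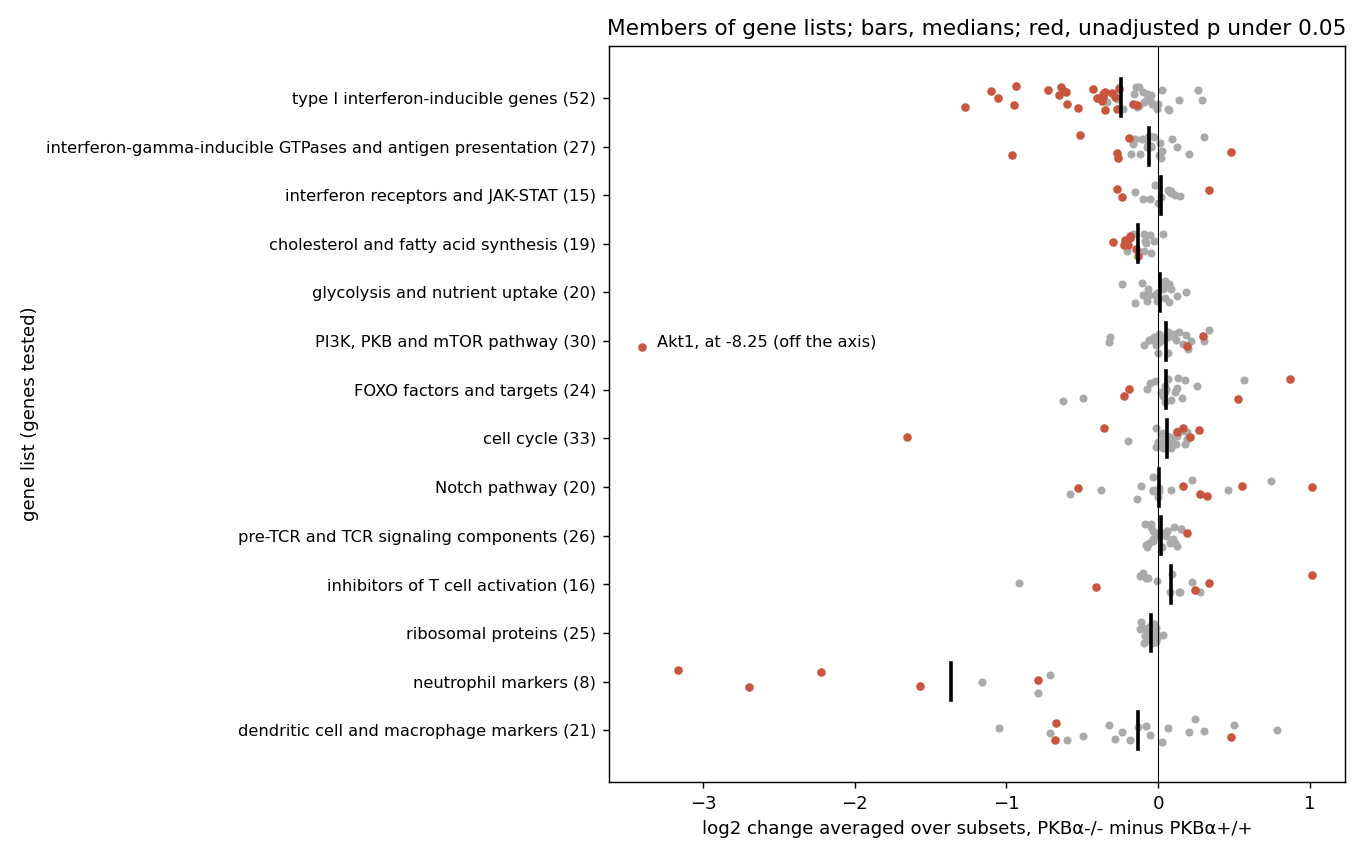
Log2 change averaged over both subsets (PKBα-/- minus PKBα+/+) of the tested members of 14 gene lists, 1 point per gene at its brightest probe set, red at an unadjusted p under 0.05, with a bar at the median. The type I interferon list (median -0.25) lies to the left, the neutrophil markers lie further left but were not all tested independently of their wild-type level, the sterol list and the ribosomal proteins lie slightly left (-0.13 and -0.05), and most other medians are near 0.

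Of 33 cell cycle genes tested, 26 were above 0 with a median of 0.06, against 6945 of all 13616 genes and a median of 0.00. At an unadjusted p under 0.05, 4 were higher and 2, Cdkn1a and Ccnd2, were lower, against 2.48% and 2.42% of all genes. Ccnd2, which encodes cyclin D2, had 4350, 3160, 3940 and 3990 in wild-type and 3330, 2480, 3130 and 3140 in PKBα-/- animals, with every pair lower. Its change of -0.35 (adjusted p = 0.0677) came mostly from ISP8 cells (-0.61, against -0.09 in DN3 cells; unadjusted p of the difference 0.13). E2f2, an S phase transcription factor, was at 0.21 and did not pass. Ribosomal proteins had 24 of 25 below 0, none at an unadjusted p under 0.05, with values from -0.12 to 0.03. Glycolysis and nutrient uptake genes had 10 above and 10 below 0, none at an unadjusted p under 0.05.

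Genes of the DN3 stage and of Notch signaling are given against the same 2.48% higher and 2.42% lower of all genes. Of 16 DN3-stage genes, 5 were higher and 2 lower at an unadjusted p under 0.05, with a median of 0.09, which was -0.03 in DN3 and 0.17 in ISP8 cells. Their summed level was higher in the PKBα-/- animal of every pair, at 48500 to 55100 in wild-type and 51900 to 56100 in PKBα-/- animals. Notch1 (means 18400 and 18500) and Rag1 (14000 and 14600) carry this sum. It ran from 81000 to 93900 against 81900 to 88700 in DN3 cells, and from 35400 to 41000 against 40500 to 45400 in ISP8 cells. Ets1, among the 5 higher, and Lmo4 had higher wild-type means in ISP8 than in DN3 cells. Of 20 Notch pathway genes 5 were higher and 1 lower, with a median of 0.01. Dtx1, a Notch target that encodes a ubiquitin ligase, had 1230, 1860, 1630 and 2650 in wild-type and 2440, 2510, 2070 and 3640 in PKBα-/- animals. Each PKBα-/- animal was above its littermate although the groups overlapped, and the change was 0.55 (adjusted p = 0.0613), 0.25 in DN3 and 0.85 in ISP8 cells. A second, dimmer probe set gave 0.03. Il2ra was at 0.28 and Heyl, a Notch target of low level, at 1.01, and neither passed. The Heyl value rests largely on pair 3 (2.3), whose wild-type ISP8 value was 1.2, and the other tested Heyl probe set gave -0.36.

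The shares over all genes just given apply to the lists that follow too. Pre-TCR and TCR signaling components, 26 tested, had a median of 0.02, and 1 was higher at an unadjusted p under 0.05. Of 18 genes induced by the pre-TCR, Ccr9 was called, 1 was higher and 2 lower at an unadjusted p under 0.05, with a median of -0.01. Id3, an inhibitor of E proteins, was at 0.34, and Nr4a3, an immediate early nuclear receptor, at -0.78. Pair 2 rose by 0.93 at this Nr4a3 probe set, and the other tested Nr4a3 probe set gave 0.35. Of 16 inhibitors of T cell activation, Ctla4 was called and the median was 0.08. Dgka, which removes diacylglycerol, was at 0.24 and Socs3, a brake on cytokine receptors, at 0.33, and neither passed. Apoptosis regulators, 19 tested, had 1 higher and 1 lower at an unadjusted p under 0.05 and a median of 0.03. Thymocyte chemokine receptors and adhesion molecules, 18 tested, had 2 higher and 4 lower, and Itgae, the integrin that binds E-cadherin, was at -0.68.

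Markers of other cells were also compared. Of 7 γδ T cell markers tested, 2 were higher at an unadjusted p under 0.05 with a median of 0.25, Cd163l1, a scavenger receptor (0.86, with pair 1 below 0), and Blk, a Src family kinase (0.66, above 0 in all 8 differences), and neither passed. Their sum ran from 2450 to 3210 in wild-type and from 3170 to 3260 in PKBα-/- animals. Of 12 NK and innate lymphoid cell markers measured, 8 passed the filter on level, and none of these had an unadjusted p under 0.05. Eomes passed in pairs 2 and 3 through wild-type animals alone, so the median of this list is not given as a result. The sum over all 12 ran from 14300 to 17200 in wild-type and from 12300 to 18000 in PKBα-/- animals. It was lower in 2 of 4 pairs and is carried by Gzma (means 15000 and 14900). Of immediate early and heat shock genes, 19 tested, 2 were lower at an unadjusted p under 0.05, the AP-1 subunits Junb (-0.84) and Fos (-1.54), and the median was -0.01. Fos had low levels, 22.6, 17.5, 46.6 and 45.7 in wild-type and 17.2, 6.9, 9.87 and 9.97 in PKBα-/- animals. It passed the filter on level through wild-type animals alone, so its p is not given as a result. Dendritic cell and macrophage markers, 21 tested, had 1 higher and 2 lower and a median of -0.13. B cell and mature T cell lists had medians of 0.05 and 0.06. The latter includes Cd40lg, whose mean in PKBα-/- animals was 11.9, below the filter on level. Krt5 of the stromal list passed that filter in pairs 2 and 3 through wild-type animals alone. Hbb-b2 of the erythroid list did so in pairs 1 and 3. The medians of the stromal and erythroid lists are therefore not given as a result. The 12 genes listed for the ISP8 and double positive stages had a median of -0.01, with Ccr9 the member lower at that threshold. In wild-type animals Ccr9, Arpp21, Cd24a, Ly6d, Dntt, Tcf12 and Aqp11 had higher means in DN3 than in ISP8 cells. Cd8a, Cd8b1, Cd4, Themis and Mns1 had lower ones, so the median of this list is no measure of stage here. Of the 5 genes that the study marked in both subsets, and so chosen on these arrays, Rsad2 and Rtp4 were lower and A630023P12Rik, Cd163l1 and a cDNA clone with no symbol here higher at an unadjusted p under 0.05. The clone had levels of 1860, 1320, 1240 and 3150 in wild-type and 4110, 2310, 2010 and 3340 in PKBα-/- animals, above the littermate in every pair although the groups overlapped. Its change was 0.68 (adjusted p = 0.0677), with 0.65 in DN3 and 0.72 in ISP8 cells and all 8 differences above 0. Of 4 sex-linked genes tested, all were below 0 in the mean over pairs and 1 had an unadjusted p under 0.05. Their medians in pairs 1 to 4 were -0.73, -0.001, 0.06 and 0.20, so the low value came from pair 1. Eif2s3y, a gene of the Y chromosome, was at 3.54 to 39.9 in the female pairs and 2590 to 3160 in the male pairs.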

How the data were processed

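RNA of FACS-sorted cells was amplified in 2 cycles and hybridised to Affymetrix mouse genome arrays. The authors made the deposited intensities, GC-RMA values on a linear scale, in Refiner 3.1. The deposited values were used here as log2 with no constant. GC-RMA brings low intensities close to 0, so fold changes of dim probe sets are wide. Detection calls were not used here. Of 45101 probe sets, 34958 had 1 gene symbol in the platform annotation, updated through Entrez IDs, 932 several and 9211 none. Tests kept probe sets whose animal mean exceeded 20 in either littermate for 3 or more pairs.

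Animal means were compared in limma 3.58.1 (R 4.3.3, statmod 1.5.0; Python 3.11.15 and matplotlib 3.10.9 for figures) with the pair as a block, a trend in the spread and Benjamini-Hochberg adjustment. The residual degrees of freedom were 3, to which moderation added 11.8. The labels name each sample's littermate. Over 23870 probe sets above 20 in every animal, deviations from genotype means correlated at 0.201 to 0.317 within pairs and -0.218 to 0.0413 between pairs. The mice of a genotype are separate animals, and their number limits the precision. Replicate arrays of one subset and animal were not made.

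Named were Akt1, Akt2, up to 12 genes per direction by p (called and moving one way in 4 of 4 pairs, then not called with all 8 differences of one sign), the genes the study marked for both subsets (4 with a symbol and 1 probe set), and up to 3 members per list by p. Other members were named after their values were seen. In lists a gene stands at its brightest probe set. The members of this comparison and the 29 lists were chosen with earlier results of these data known. Sex-linked genes served as a label check. The fit was tested on simulated data. Alternatives covered the filter, an added constant of 20, quantile normalization, linear means, the block, moderation, 16-array fits, the methods' t-test, each pair left out, each subset alone and gene means. The fit over 16 arrays without an animal block was chosen after seeing the data. So was the interferon list without the genes that the study's tables list as interferon-inducible.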

Additional observations from a re-analysis of the deposited data

Results flagged for a closer look

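Among 84 groups of 4 animals checked (32 probe sets and 10 marker sums in each genotype), 3 held a sample far from the others by a gap that is large against the group's range, where chance gives about 1 in 20. For Eps8l1 the wild-type animal of pair 3 was at 13.2 and the others at 86.2 to 106 (gap over range 0.899). For Akt2 at the probe set of middle level the PKBα-/- animal of pair 3 was at 205 and the others at 238 to 242 (0.903). The summed γδ T cell markers of the PKBα-/- animal of pair 4 were at 3170 and the others at 3250 to 3260 (0.89).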

How the results depend on the processing

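The 13 calls became 10 without a filter and 7 with a filter at 100, 23 with 20 added before log2, 15 after quantile normalization, 22 with linear means, 2 with no replicate block, 0 with moderation without a trend, 23 with robust moderation, 12 and 13 in the 16-array fits with and without an animal block, 12 in DN3 arrays alone, 3 in ISP8 arrays alone and 3 with the probe sets averaged per gene. Leaving out 1 pair gave 8 to 17 calls (17, 15, 9 and 8 without pairs 1 to 4). The methods' t-test with its fold rule selected 337 probe sets and after Benjamini-Hochberg 0. Shared with the 13 were 2 calls with no replicate block and 13 each after quantile normalization and with 20 added. The 25 lower interferon-inducible genes became 16 with the methods' t-test and 14 in ISP8 arrays alone, and were 18 to 26 under the other alternatives. The 8 lower sterol genes became 1 with no replicate block, 0 without a trend, 3 with the methods' t-test, 2 to 5 without 1 pair, 3 in DN3 and 5 in ISP8 arrays alone and 5 with gene means. The difference between subsets stayed at 0 calls with no replicate block, with 20 added and without any 1 pair. The first α-globin probe set changed sign in ISP8 arrays alone (0.027). Of 1730 values of 110 single probe sets under alternatives, 1719 kept their direction. Except where such a value shows it, the cause was not tested. With 4 pairs, changes of dim probe sets have wide errors.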
